A study of Mus musculus with 6 samples.

Results

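Barcodes low in Tph1 that passed an enteroendocrine gate were 194 of 60706 in the 6 single-cell RNA-sequencing (scRNA-seq) libraries of mouse small intestinal mucosa. They are called Tph1-low enteroendocrine barcodes here, after the gate. Within the limits on depth and mitochondrial RNA lay 36609 barcodes. A barcode was taken when it held at least 1000 unique molecular identifiers (UMIs, each standing for 1 captured RNA molecule), at most 30% UMIs of mitochondrially encoded RNAs, UMIs of at least 3 of the 6 gate genes Chga, Chgb, Scg5, Neurod1, Pcsk1n and Cpe, and fewer than 5 UMIs of Tph1. The members were therefore chosen on the measured levels of these 7 RNAs, which are described below. The gate genes stayed in the fits across all RNAs, but nothing is read from their calls. Of the 194, 36, 46 and 34 came from control replicates 1, 2 and 3, and 19, 35 and 24 from the libraries labelled IE-HuR-/-, replicates 1, 2 and 3.

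Enteroendocrine cells are rare hormone-secreting cells scattered through the gut epithelium. They sense nutrients and other luminal signals and release peptide hormones from dense-core granules, in which prohormones are cleaved by convertases such as Pcsk1 and trimmed by carboxypeptidase E (Cpe), with chromogranins and secretogranins as granule proteins. Tph1, the enzyme that starts serotonin synthesis outside the brain, marks the enterochromaffin cells among them, so that a low Tph1 count leaves mainly cells that make peptide hormones such as secretin (Sct), cholecystokinin (Cck), GIP, neurotensin (Nts), peptide YY (Pyy), somatostatin (Sst) and ghrelin (Ghrl).

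The study compared intestinal epithelium with and without HuR, an RNA-binding protein encoded by Elavl1 that controls the stability and translation of its target RNAs. The IE-HuR-/- mice carried floxed HuR alleles and a Cre transgene driven by the villin promoter, which is active in epithelial cells of the gut, and the controls were Cre-negative littermates with the same floxed alleles, which the labels call wild-type. All were age- and sex-matched C57BL/6 mice, with 1 library per animal and 3 animals per label. The labels give normal feeding and drinking, whereas the methods state that food was withheld before experiments. Library totals ran from 66396951 to 91818560 UMIs in the controls and from 59518012 to 65925616 UMIs in the others.

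Elavl1, the deleted gene, was measured before any comparison by label. In the Tph1-low enteroendocrine barcodes its RNA stood at 48.7, 53.5 and 32.7 CPM (the UMIs of an RNA scaled by all UMIs of the summed barcodes to a total of 1000000) in control replicates 1, 2 and 3 and at 43.6, 30.02 and 36.3 CPM in the libraries labelled IE-HuR-/-. The groups overlapped, with a log2 fold change of -0.13 and a standard error of 0.24 (adjusted p = 0.788 by edgeR). In the other epithelial barcodes Elavl1 was slightly higher in the libraries labelled IE-HuR-/- (log2 fold change 0.23, adjusted p = 0.000527). The RNA did not separate the labels in the direction of a deletion. Counts per gene check a label only where the counted tags lie in the deleted part, which was not established here, so every direction below rests on the labels of the libraries.

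The marker genes Chgb, Scg5, Neurod1, Pcsk1n and Cpe are themselves gate genes, so their presence was fixed by the selection and is no check of the name enteroendocrine. Of the 194 barcodes, 92 held all 6 gate genes, 20 held 5, 24 held 4 and 58 held 3. The median was 75.5 gate-gene UMIs among 25646.5 UMIs in all. Just inside the threshold, barcodes with 3 gate genes had a median of 6 gate-gene UMIs, and just outside it 525 barcodes with 2 gate genes had a median of 2. Tph1 was at 0 in 159 members and at 4 UMIs, the highest level allowed, in 8, while 26 barcodes just beyond that limit had 5 to 9.

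The gate genes made up at least 0.1% of the UMIs in 140 members, called high-gate barcodes here, and less in the other 54, called low-gate barcodes. High-gate barcodes had a median of 125 gate-gene UMIs and 1.11% of their UMIs on 14 enterocyte genes such as Apoa1 and Fabp2. Low-gate barcodes had a median of 7.5 gate-gene UMIs, 43516 UMIs in all and 8.63% enterocyte RNA, against 3888 UMIs and 6.58% in other epithelial barcodes. Low-gate barcodes were thus deep and rich in absorptive RNAs, with few UMIs of the gate genes that chose them. At least 10 UMIs of some hormone, more than of any other hormone, were found in 25.9% of barcodes with 3 gate genes, 62.5% with 4 and 100% with 5 or 6, against 7.24% with 2. No such hormone was found in 34 of the 54 low-gate barcodes. For all 194, the name enteroendocrine thus stands for passing the gate, and the low-gate values do not bear it out. Results by label are therefore given for all 194 and for the 140 high-gate barcodes.

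Markers of other cells were present in part of the members. UMIs of at least 2 of 10 T/NK genes were found in 48 of the 194, 3 failed the definition of an epithelial barcode, and in 9 at least 5% of UMIs belonged to 9 goblet genes led by Zg16. Of 9 tuft genes, 6 had a UMI, Trpm5 the highest, and Il25, Gfi1b and Pou2f3 were at 0. The tuft list summed to 7.92, 4.28 and 3.36 CPM in the controls and to 17.7, 13.9 and 16.3 CPM in the libraries labelled IE-HuR-/-, against 8.62, 2.85 and 2.56 CPM and 8.62, 11.9 and 8.41 CPM in the high-gate barcodes. All 10 Paneth genes had a UMI, Defa24 the highest, 1 member had at least 1% Paneth RNA, and the list summed to 763 CPM in control replicate 3 and to at most 76.9 CPM in every other library, but to at most 31.4 CPM in the high-gate barcodes of any library. The part of these cells in the results by label was not tested. The sums of 5 fibroblast genes led by Dcn were 827 CPM in IE-HuR-/- replicate 3 but at most 2.52 CPM in every other library, and 0 CPM in the high-gate barcodes of that library. Haemoglobin RNAs summed to 5025 CPM in control replicate 2 and to at most 391 CPM in the others. In the low-gate barcodes of control replicate 2 the highest of them, Hbb-bs, was at 38.5 CPM. Most of that library's sum thus lay in its high-gate barcodes. Between libraries, 435 barcode sequences recurred, none of them as members of 2 libraries. Low-gate barcodes took 19.4%, 17.4% and 26.5% of the members in the controls and 47.4%, 40.0% and 29.2% in the libraries labelled IE-HuR-/-, so that the labels did not overlap. The limit between high-gate and low-gate barcodes rests on the gate genes, so this is a description without a test.

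Tph1-low enteroendocrine barcodes made up 0.671%, 0.624% and 1.03% of the epithelial barcodes in the controls and 0.497%, 0.834% and 0.592% in the libraries labelled IE-HuR-/-. The groups overlapped, at 0.776% ± 0.223 against 0.641% ± 0.174 (SD, n = 3 libraries each, exact permutation p = 0.5, two-sided, where 3 against 3 libraries allow no p below 0.1), with a 95% Wilson interval of 0.318% to 0.775% for the lowest library, which covers counting error only. Member depth differed by label, with median UMIs per barcode of 20747.5, 18570.5 and 29994.5 in the controls and 30270.0, 30955 and 31592.5 in the others. The labels did not overlap in depth (exact permutation p = 0.1), and since the gate counts detected genes, it can admit more barcodes at greater depth. The part of depth in the shares was not tested. High-gate barcodes alone were 0.541%, 0.516% and 0.759% in the controls and 0.261%, 0.500% and 0.419% in the others. Every control library lay above every library labelled IE-HuR-/- (0.605% ± 0.134 against 0.394% ± 0.122, SD, n = 3 each), a description without a test since the limit rests on the gate genes, although control replicate 2 and IE-HuR-/- replicate 2 differed by less than the width of their intervals. Barcodes of the same gate with at least 5 Tph1 UMIs, 158 in all, stood at 0.632% ± 0.0847 and 0.498% ± 0.0692 (SD, n = 3 each), also a description without a test. The gate genes set the share of all members too, so its exact permutation p of 0.5 concerns barcodes that passed the gate, not numbers of cells.

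**Figure D1:**
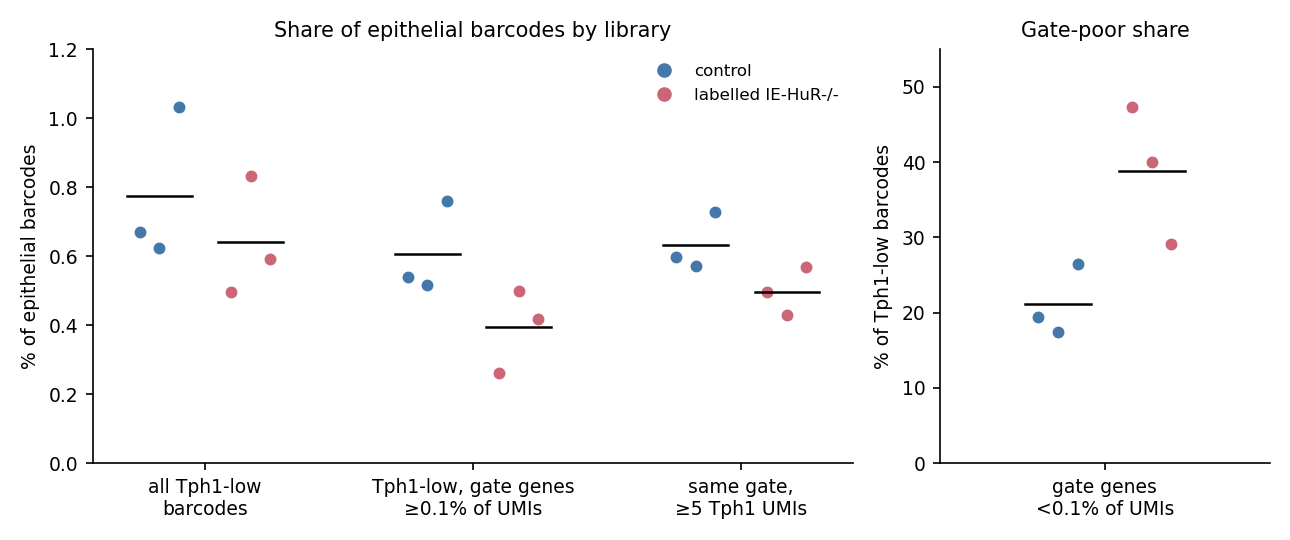
Share of epithelial barcodes (y axis, percent) in each of the 6 libraries, by label, for all Tph1-low enteroendocrine barcodes, the high-gate barcodes and the same gate with at least 5 Tph1 UMIs; the right panel gives low-gate barcodes as a percent of members. Points are libraries and black lines label means, and the labels overlap for all members but lie apart for the other 3 measures.

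Peptide hormone RNAs led the profile of the members against other epithelial barcodes. This is a description without a test, since the members were chosen in these same cells. By the lowest log2 fold of the 6 libraries, with 5 CPM added to both sides, Gip led at 9.89, followed by Pyy at 9.26, Nts at 9.02, Ghrl at 7.96, Cck at 6.82 and Sct at 6.66. The proglucagon gene Gcg, the source of GLP-1, stood at 4.23.

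Granule and processing genes that the gate did not use were also high in the profile. Secretogranin genes Scg2 and Scg3 were at 6.41 and 4.77, the granule protein gene Resp18 at 5.15, the calcium-binding secretagogin gene Scgn at 4.59 and the prohormone convertase gene Pcsk1 at 4.44. The transcription factor genes Isl1 and Pax6 were at 4.70 and 4.29, and Ffar1, which encodes a receptor for long-chain fatty acids, at 4.40. Fabp5, a fatty acid carrier, stood at 6.02, the retinol carrier Rbp4 at 5.45, the imprinted gene Peg3 at 5.19, the cardiac-type myosin light chain Myl7 at 5.04 and Fam183b at 4.59. Among the gate genes themselves Chgb was highest at 6.69. Barcodes of the same gate with at least 5 Tph1 UMIs held several of these RNAs at a like or higher median level over libraries, with Resp18 at 416 CPM against 262 in the members, Scg3 at 366 against 172, Pcsk1 at 958 against 277, Nts at 29134 against 23494 and Cck at 11741 against 10907. Others were lower there, with Gip at 10.7 CPM against 16331, Pyy at 185 against 6474, Isl1 at 12.3 against 170.0, Scgn at 31.4 against 185 and Scg2 at 402 against 1133.

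Counted per barcode, the hormones stood in another order than in the sums. Sct had at least 1 UMI in 94.3% of members, Cck in 57.2%, Pyy in 51.0%, Nts in 50.5% and Gip in 36.1%. In T/NK barcodes, which should not make these hormones and had a median of 4674 UMIs against 25646.5 in members, the shares were 10.0%, 4.89%, 2.52%, 15.3% and 7.01%, so that a low count of Nts or Gip was also seen outside hormone cells. At least 10 UMIs were seen in 136 members for Sct, 78 for Cck, 66 for Pyy, 59 for Nts, 45 for Gip, 41 for Ghrl, 17 for Gcg and 15 each for Sst and Iapp, but in at most 1 of 6745 T/NK barcodes for any of these hormones. Among 27749 other epithelial barcodes, 397 had at least 10 UMIs of Sct, with up to 96 in 1 barcode. There the same count was reached by 11 for Gip, 11 for Nts and 7 for Cck. A count of 10 Sct UMIs was therefore not confined to the members. In the most loaded barcode of each library, Nts alone took between 19.8% and 37.1% of all UMIs and Gip between 18.6% and 33.6%.

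The promoters of 3 hormone genes are shown because Sct was the most widespread hormone RNA, Gip the one that stood farthest above other epithelium and Pyy the only one called by label below. Each run holds the 250 bases before the start site, from RefSeq annotation on GRCm38.p6, 5′ to 3′ on the gene's strand, and capitals mark the E-box pattern CANNTG, the letters bound by basic helix-loop-helix factors such as Neurod1. The pattern reads the same on both strands.
Sct, chr7:141279134-141279383, minus strand: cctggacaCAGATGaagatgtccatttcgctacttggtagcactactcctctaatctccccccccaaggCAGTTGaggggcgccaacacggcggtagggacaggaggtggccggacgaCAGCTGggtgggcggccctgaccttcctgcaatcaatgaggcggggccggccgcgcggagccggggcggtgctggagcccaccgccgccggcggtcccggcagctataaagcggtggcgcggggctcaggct
Gip, chr11:96024295-96024544, plus strand: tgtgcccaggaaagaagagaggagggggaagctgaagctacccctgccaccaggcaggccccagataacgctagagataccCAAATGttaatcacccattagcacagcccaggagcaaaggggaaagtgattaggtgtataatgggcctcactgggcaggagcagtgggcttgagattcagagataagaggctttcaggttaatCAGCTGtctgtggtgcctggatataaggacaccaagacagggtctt
Pyy, chr11:102107833-102108082, minus strand: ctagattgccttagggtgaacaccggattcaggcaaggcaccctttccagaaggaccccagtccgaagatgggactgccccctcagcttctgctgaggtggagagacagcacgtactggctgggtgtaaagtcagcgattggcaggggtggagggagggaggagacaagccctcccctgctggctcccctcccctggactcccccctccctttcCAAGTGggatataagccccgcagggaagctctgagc

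The Sct window held 3 such sites, Gip 2 and Pyy 1. All 12 hormone promoters examined held at least 1, and so did 66.0% of the 27025 promoters in the same table, so the pattern alone does not set the hormone genes apart. The narrower forms CAGCTG and CAGATG, which are contained in it, were found in 3 and 5 of the 12 and in 12.8% and 14.5% of all promoters, and the GATA-type sequence GATAAG, searched on both strands, in 2 of the 12 and in 6.60% of all. These are matches of letters and not measured binding sites, and the data hold no binding measurement.

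Most members with hormone RNA carried several hormones at once. Of the 194, 51 had no hormone with at least 10 UMIs, 15 had 1, 28 had 2, 30 had 3, 44 had 4, 19 had 5 and 7 had 6. All 78 barcodes with at least 10 UMIs of Cck also had at least 10 of Sct, 48 of them had Pyy and 36 had Nts, but none had Sst. Of 15 barcodes with Sst, 14 had Iapp, the gene of islet amyloid polypeptide, and 13 had Ghrl, whereas none had Cck, Nts or Gcg. Among the 45 with Gip, 39 had Sct, 27 had Cck and 5 had Nts. Sct was also present in 13 of the 15 with Sst, Pyy in 7 and Gip in 5. A droplet may hold more than 1 cell, and doublets were not removed.

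**Figure D2:**
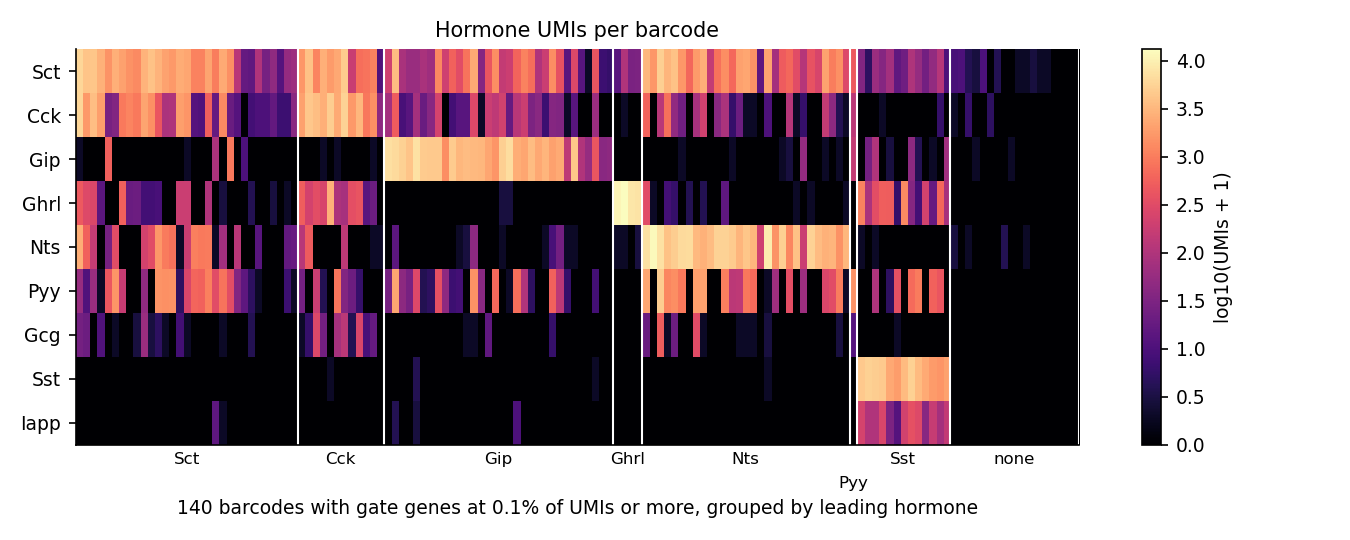
UMIs of 9 hormone RNAs (y axis) in the 140 high-gate barcodes (x axis), grouped by the hormone with the most UMIs, with colour giving log10 of UMIs plus 1. Sct is present across nearly every block, while Sst and Iapp share a block without Cck.

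By the hormone with the most UMIs, and at least 10, Sct led 40 members, Gip 35, Nts 33, Sst 15, Cck 14, Ghrl 4 and Pyy 1, and 52 had no leader. The 140 high-gate barcodes were divided in the same way to describe what goes with each leader, again without a test. Barcodes of both labels were pooled for this, and the leaders were not spread evenly by label. Cck led 4, 4 and 3 high-gate barcodes in the controls and 0, 0 and 1 in the libraries labelled IE-HuR-/-. Nts led 5, 6 and 4 of 29, 38 and 25 against 3, 5 and 6 of 10, 21 and 17. The part of the label in what goes with a leader was not tested. The 32 Gip-led barcodes held Fabp5 at 4894 CPM against 375 in the other high-gate barcodes, the cannabinoid receptor gene Cnr1 at 368 against 16.1, the adhesion receptor gene Cd44 at 378 against 25.4, Rbp4 at 1495 against 348 and the transcription factor gene Rfx6 at 183 against 27.0. The 13 Sst-led barcodes had Iapp at 7249 CPM against 9.56, the transcription factor gene Hhex at 507 against 0, the acid-sensing channel family gene Asic5 at 2946 against 41.5 and the GLP-1 receptor gene Glp1r at 518 against 1.32. Hhex was detected in all 13 and in none of the others.

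Other RNAs went with the remaining leaders. In the 29 Nts-led barcodes, Adgrd1, an adhesion receptor gene, was at 390 CPM against 24.7, and Qpct, which encodes the enzyme that cyclizes N-terminal glutamine as in neurotensin, at 338 against 68.9. Goblet and antimicrobial RNAs were also higher there, with Reg3b at 6421 CPM against 1025, Muc2 at 1929 against 565 and Zg16 at 5006 against 1514, but 2 of the 29 are single barcodes of IE-HuR-/- replicates 2 and 3 with 8.51% and 9.82% of their UMIs on goblet genes. Reg3b was also called higher by label in all members, and the part of the label in its level here was not tested. The 12 Cck-led barcodes had Reg1, a secreted lectin gene, at 2502 CPM against 25.3, with a UMI in 50% of them and in 27.3% of the others, Gcg at 2307 CPM against 354, the short-chain fatty acid receptor gene Ffar2 at 133 against 29.0 and the potassium channel gene Kcnk16 at 181 against 30.4. The 31 Sct-led barcodes had Cck at 33880 CPM against 14891, the adhesion receptor gene Adgrg4 at 442 against 146 and the apolipoprotein gene Apoa4 at 8906 against 3761.

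The make-up by leading hormone was compared between labels over libraries. Cck led 11.1%, 10.9% and 11.8% of the members in the controls and 0%, 0% and 4.17% in the libraries labelled IE-HuR-/-, that is, 4, 5 and 4 barcodes against 0, 0 and 1. Nts led 13.9%, 13.0% and 14.7% in the controls and 26.3%, 17.1% and 25.0% in the others. For both hormones the labels did not overlap, but the exact permutation p was 0.1, the smallest possible, and 0.25 after adjustment over the 5 hormones leading at least 10 members. Shares led by Sct, Gip and Sst overlapped between labels. With 0 of 35 barcodes in IE-HuR-/- replicate 2 and 0 of 19 in replicate 1, Cck-led barcodes were not detectable at this number rather than absent.

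Hormone RNA in the summed members was then compared with edgeR's quasi-likelihood test (Benjamini-Hochberg adjusted p under 0.05 called). Across all RNAs tested in the 194 members, 7.47% of 7392 were called. Libraries labelled IE-HuR-/- were higher for 390 (5.28%) and lower for 162 (2.19%), the gate gene Chgb among the latter, and for 29.7% of all RNAs tested the labels did not overlap. Without TMM scaling 222 were higher and 328 lower, with a median log2 fold change of -0.20 over all RNAs. Of the 10 hormone RNAs tested among 14 listed, 1 was called, Pyy, and their median log2 fold change was -0.31 against -0.02 over all RNAs tested. In the high-gate barcodes 0.816% of 6618 RNAs were called, 41 higher (0.62%) and 13 lower (0.196%), the labels did not overlap for 17.2%, and again Pyy was the only hormone called among 10 tested, with a median of 0.25 against -0.01. Barcodes of the same gate with at least 5 Tph1 UMIs had 0.259% of 6946 RNAs called, 0.158% higher and 0.101% lower.

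Pyy, which encodes a satiety peptide of the lower gut, stood at 4586 and 6255 CPM in control replicates 2 and 3, at 5256.5 CPM in replicate 1, and at 6694, 11580.1 and 8415 CPM in IE-HuR-/- replicates 1, 2 and 3. All controls lay below all libraries labelled IE-HuR-/-, and the log2 fold change was 0.90 (standard error 0.23, adjusted p = 0.0255). In the high-gate barcodes the levels were 7835, 6090 and 9536 CPM against 21122, 26795 and 14136 CPM (log2 fold change 1.502, standard error 0.30, adjusted p = 0.0183). Pyy was at most 3.85 CPM in other epithelial barcodes and at most 8.17 CPM in T/NK barcodes of any library. The call depended on single libraries. In all members the adjusted p was 0.141, 0.168 and 0.168 without control replicate 1, control replicate 2 and IE-HuR-/- replicate 2, at log2 fold changes of 0.87, 0.79 and 0.60. It was also 0.136 with fewer than 2 Tph1 UMIs (log2 fold change 0.55), 0.0774 at no more than 15% mitochondrial UMIs (0.88), 0.153 without goblet-rich members (0.85), 0.345 without members over 3% enterocyte RNA (1.11) and 0.118 with a replicate block (0.87). In the high-gate barcodes the adjusted p was 0.188 without IE-HuR-/- replicate 2, 0.207 without control replicate 2, 0.0563 without control replicate 3 and 0.051 at a log2 fold change of 1.48 when 3 barcodes rich in goblet RNA, described below, were left out.

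Pyy RNA also sat in few barcodes. The most loaded barcode held between 21.6% and 49.0% of the Pyy UMIs of all members of a library. Within the Nts-led high-gate barcodes the levels overlapped, at 5.21, 7430 and 19733 CPM in the controls and 41757, 53790 and 17075 CPM in the others, and they also overlapped within the Gip-led ones. Within the Sct-led high-gate barcodes they did not, at 1813, 10569.8 and 10263 CPM in the controls and 33617, 13471 and 20483 CPM in the others, without a test. That separation rests on 1 barcode. Of the 1538 Pyy UMIs behind the level in IE-HuR-/- replicate 1, 1532 came from its goblet-rich barcode, and the only other Sct-led barcode there had 6 Pyy UMIs among 12378, below the level of every control. In such sums, more cells with a hormone and more of its RNA per cell cannot be told apart.

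Cck RNA was lower in every library labelled IE-HuR-/- without passing the test. It stood at 17276, 14646 and 19573 CPM in the controls and at 799, 4609 and 7169 CPM in the others, with the groups apart (log2 fold change -1.88, standard error 0.85, adjusted p = 0.304). The high-gate barcodes gave 26266, 18856 and 29599 CPM against 2495, 10668 and 12001 CPM (log2 fold change -1.48, adjusted p = 0.375). The spread among the libraries labelled IE-HuR-/- was wide, and the adjusted p was 0.00402 at a log2 fold change of -1.39 without IE-HuR-/- replicate 1, and 0.0352 at -2.30 without members over 3% enterocyte RNA. The direction differed with the leading hormone, without a test. Within the Sct-led high-gate barcodes Cck stood at 111633, 28609 and 60665 CPM in the controls and at 2251, 25245 and 16023 CPM in the others, but within the Nts-led ones at 10.4, 49.5 and 1279 CPM against 2636, 4963 and 5800.4 CPM, and neither pair of groups overlapped. Control replicate 1 and IE-HuR-/- replicate 1 had 2 Sct-led high-gate barcodes each.

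No other hormone was called. Gip stood at 18273, 27987 and 22958 CPM against 13976, 14389 and 9517 CPM in all members, where the groups were apart (log2 fold change -0.69, adjusted p = 0.0788), but at a log2 fold change of 0.04 with overlapping libraries in the high-gate barcodes (adjusted p = 0.981). Sct stood at 22485, 27266 and 27832 CPM against 10430.3, 23617 and 25165 CPM, and Nts at 33121, 22671 and 17070.2 CPM against 13847, 24317 and 31139 CPM, with log2 fold changes of -0.22 and 0.11. For Ghrl, a stomach and gut hormone that stimulates appetite, 1 barcode held 53.6% of the UMIs in control replicate 1 and nearly all of them in IE-HuR-/- replicate 1, and the levels ran from 1589 to 27866 CPM in the controls and from 2171 to 11282 CPM in the others. Sst had no UMI in IE-HuR-/- replicate 1 and 5339 and 8881 CPM in replicates 2 and 3, against 6210.3 to 14224 CPM in the controls. Iapp, which went with Sst in the same barcodes, stood at 649, 370.2 and 770.2 CPM in the controls and at 12.3, 95.9 and 347 CPM in the others, with the groups apart but no call (log2 fold change -1.85, standard error 1.08, adjusted p = 0.418). Gcg ran from 235 to 369 CPM in the controls and from 93.9 to 463 CPM in the others, and the satiety factor gene Nucb2 from 10.7 to 29.4 CPM and from 9.52 to 16.4 CPM. Insl5, Tac1 and Ucn3 had 98, 20 and 30 UMIs in all members and were not tested.

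**Figure D3:**
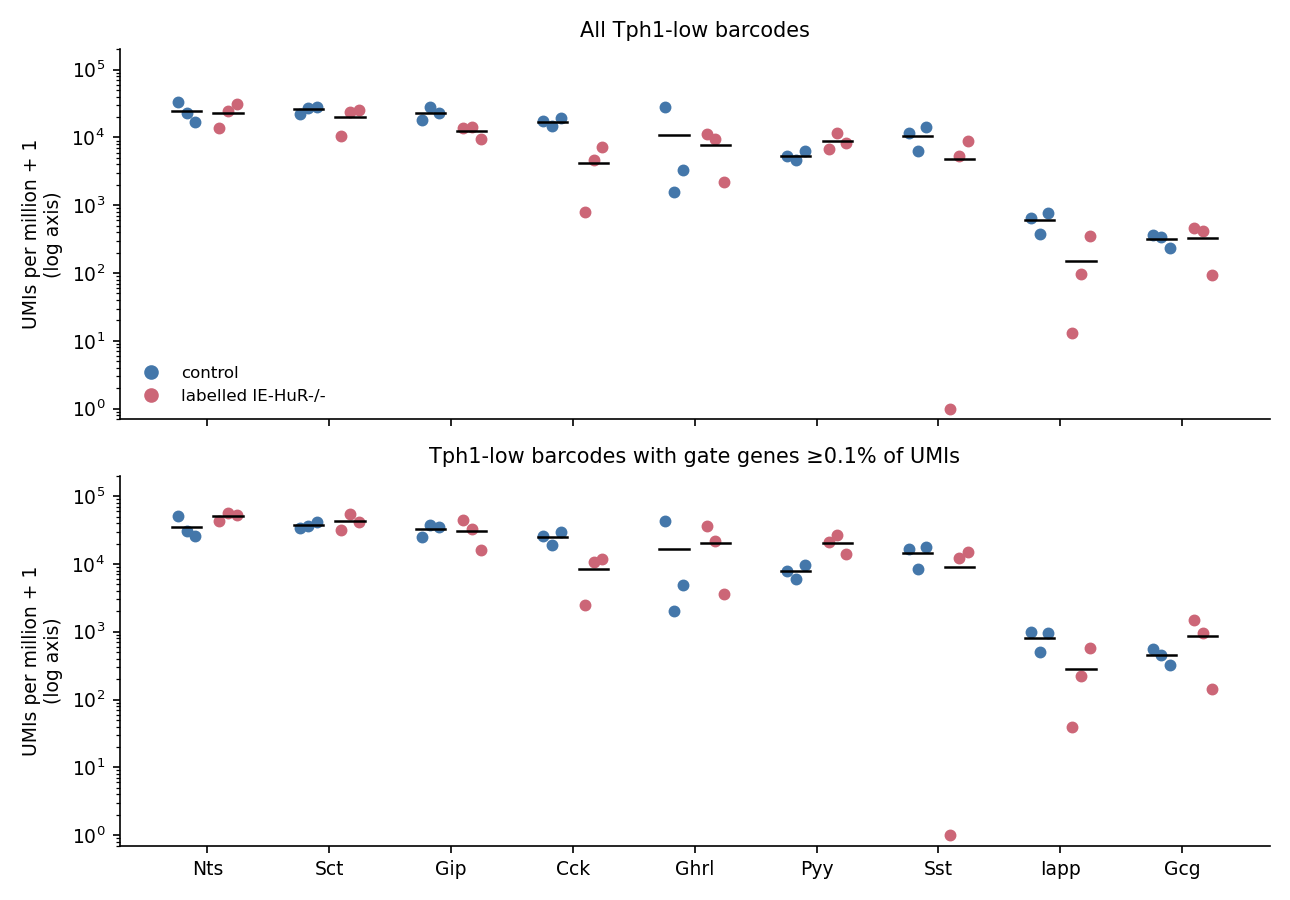
Hormone RNA (y axis, CPM of the summed barcodes plus 1, log axis) in each library for all members and for the high-gate barcodes, with a point per library coloured by label and black lines at label means. Pyy lies higher and Cck lower in all 3 libraries labelled IE-HuR-/-, and in the high-gate barcodes Sct, Gip, Nts, Ghrl, Sst and Gcg overlap between labels, while Iapp overlaps by 1 library.

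Of 11 prohormone processing and granule genes tested outside the gate in the high-gate barcodes, Ptprn rose and none fell. Log2 fold changes were positive for 8 of the 11, with a median of 0.44 against -0.01 over all RNAs tested, and 5 of the 11 had an unadjusted p under 0.05, against 714 of all 6618. Over all RNAs tested, 0.816% were called in the high-gate barcodes and 7.47% in all members. Ptprn encodes IA-2, a membrane protein of dense-core granules, and stood at 89.7, 103 and 99.8 CPM in the controls and at 254, 205 and 179 CPM in the libraries labelled IE-HuR-/-. The groups were apart, and the log2 fold change was 1.198 (its standard error 0.20, adjusted p = 0.00432), or 1.19 (adjusted p = 0.00749) without the goblet-rich barcodes. Without IE-HuR-/- replicate 2 the adjusted p was 0.0521 at a log2 fold change of 1.21. In all 194 members, Ptprn rose by 0.60 (adjusted p = 0.0436), and Scg2 and Pam, the peptide amidating enzyme gene, fell by 0.89 and 0.91 (adjusted p = 0.0171 and 0.00289), but in the high-gate barcodes their log2 fold changes were -0.36 and -0.47 (adjusted p = 0.632 and 0.403). In all members DESeq2 did not call Ptprn (adjusted p = 0.185), and Ptprn lost its edgeR call whichever library was left out (adjusted p up to 0.203, without control replicate 1) and Scg2 lost it without control replicate 1, control replicate 3 or IE-HuR-/- replicate 1 (adjusted p = 0.0889, 0.0529 and 0.065), whereas Pam kept it.

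Exocytosis genes were called in all members but not in the high-gate barcodes, and the difference between these 2 overlapping sets was not tested. Snap25 and Cadps, a SNARE protein gene and a gene for a granule priming factor, fell among 11 tested in all members. Of all 7392 RNAs tested there, 7.47% were called and 2.19% called lower. Their log2 fold changes were -1.31 and -0.93 (adjusted p = 0.00292 and 0.0369 by edgeR). DESeq2 called Snap25 but not Cadps (adjusted p = 0.0041 and 0.0927). None of 15 was called in the high-gate barcodes, against 0.816% of all 6618 RNAs tested. Of the 15, 1 had an unadjusted p under 0.05 and DESeq2 called 0. Cadps lost its call without any library but control replicate 3, with adjusted p up to 0.233 without control replicate 1. Snap25 stood at 114, 81.3 and 84.5 CPM in the high-gate barcodes of the controls and at 43.1, 59.3 and 44.2 CPM in the others. These groups were apart (log2 fold change -0.78, adjusted p = 0.185). Gate genes summed to 5721 to 6842 CPM in the members of the controls and to 3077 to 4500.0 CPM in those of the others, against 7516 to 10193 CPM and 6984 to 10600 CPM in the high-gate barcodes. These sums describe the genes that chose the members, and the part of the low-gate barcodes in the falls was not tested.

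No enteroendocrine transcription factor gene was called. Of 19 tested outside the gate, edgeR called 0 in all members and 0 in the high-gate barcodes, with 4 and 1 at an unadjusted p under 0.05, and DESeq2 called 0 in both. The median log2 fold change was -0.38 in all members and 0.09 in the high-gate barcodes, against -0.02 and -0.01 over all RNAs tested. Of 16 nutrient and signal receptor and channel genes, the channel genes Kcnb2 and Cacna1a fell in all members (log2 fold changes -0.77 and -0.69, adjusted p = 0.0277 and 0.0263 by edgeR, but 0.0812 and 0.0684 by DESeq2, which called neither), and edgeR and DESeq2 called 0 of 16 in the high-gate barcodes, 2 of them at an unadjusted p under 0.05. For both lists, edgeR called 7.47% of all RNAs tested in all members, 2.19% lower, and 0.816% in the high-gate barcodes. Kcnb2 and Cacna1a each lost the call when replicate 1 or 2 of either label was left out, with adjusted p up to 0.188 and 0.151, both without control replicate 1.

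Of the 1511 tested RNAs outside the gate at least 2-fold higher in high-gate than in other epithelial barcodes, 16 were called by label, 14 higher and 2 lower, a share of 1.06%, near the 0.816% of all RNAs tested. The set was chosen on barcodes of both labels, so an RNA raised under 1 label could enter through that label. AW551984 stood at 1.73, 12.8 and 3.84 CPM in the controls and at 56.0, 28.8 and 29.4 CPM in the others. The split by direction is therefore a description without a test. Besides Pyy and Ptprn, those higher among the 16 were Gfra3, a receptor subunit gene for the neurotrophic factor artemin, Gpr22, an orphan receptor gene, Slc26a4, an anion exchanger gene, the intermediate filament gene Vim, the immediate-early genes Egr1 and Dusp1, the selenoprotein gene Gpx3, the laminin-binding adhesion gene Bcam, the secreted WAP-domain gene Wfdc2, and Tppp3, Ccdc74a and AW551984. The 2 lower were Adgrg4 and the methyltransferase gene Setd7. The median log2 fold change over all 1511 was 0.11. Without 3 barcodes rich in goblet RNA, described below, only Wfdc2, Vim, Gfra3, Ptprn and Slc26a4 of the 16 were called. AW551984 was then not tested, and the other 10 had adjusted p between 0.051 and 0.1. Vim, Wfdc2 and Dusp1 stayed called whichever library was left out. The others lost the call without at least 1 library, most widely Bcam (adjusted p up to 0.195, without control replicate 2), Egr1 (up to 0.131, without IE-HuR-/- replicate 1), Gpx3 (up to 0.295), Ccdc74a (up to 0.329), AW551984 (up to 0.137) and Tppp3 (up to 0.114), the last 4 without IE-HuR-/- replicate 2. In all 194 members 70 of the 902 RNAs outside the gate enriched by the same measure were called, 12 higher and 58 lower (7.76%, against 7.47% of all), with a median log2 fold change of -0.32. That split is also a description without a test, for the same reason.

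Gfra3 stood at 48.3, 38.5 and 35.8 CPM in the high-gate barcodes of the controls and at 112, 108 and 86.2 CPM in the libraries labelled IE-HuR-/-. Slc26a4 stood at 48.3, 42.8 and 51.2 CPM against 103, 91.5 and 111 CPM, and Gpr22 at 82.8, 77.0 and 55.04 CPM against 181, 178 and 147 CPM. For these 3 RNAs the lowest library labelled IE-HuR-/- lay above the highest control, with log2 fold changes of 1.42, 1.19 and 1.34 (standard errors 0.23, 0.22 and 0.21, adjusted p = 0.0042, 0.00964 and 0.00356). Gfra3 and Slc26a4 kept their calls without the goblet-rich barcodes, at 1.56 and 1.15, whereas Gpr22 did not (1.09, adjusted p = 0.0708). All 3 lost the call without IE-HuR-/- replicate 2, with adjusted p of 0.0633 for Gfra3 and 0.0536 for the other 2, at log2 fold changes of 1.33, 1.26 and 1.27 for Gfra3, Slc26a4 and Gpr22, and Slc26a4 also without IE-HuR-/- replicate 3 (adjusted p = 0.051).

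Vim, a mesenchymal and lymphocyte intermediate filament gene, was at 22.4, 59.9 and 51.2 CPM in the high-gate barcodes of the controls and at 249.9, 171 and 217 CPM in the others. Its log2 fold change was 2.29 (standard error 0.27, adjusted p = 0.000362) and stayed called in all 10 further fits of the high-gate set, between 2.00 and 2.53. It was also at 169.9 to 244 CPM in T/NK barcodes. Fibroblast genes summed to at most 3.84 CPM in the high-gate barcodes of the controls and to 0 in the others. T/NK genes summed to 166, 55.6 and 34.6 CPM in the high-gate barcodes of the controls and to 38.8, 190 and 52.6 CPM in the others, 9 of the 10 genes with a UMI, Gzma the highest and Trdc at 0, and their part in the Vim values was not tested. Of the high-gate barcodes in the libraries labelled IE-HuR-/-, 7 of 10, 10 of 21 and 8 of 17 had a Vim UMI, against 4 of 29, 8 of 38 and 4 of 25.

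Adgrg4 was at 319, 220 and 279 CPM in the controls and at 134, 127 and 149 CPM in the others. Setd7 was at 89.7, 89.9 and 74.2 CPM against 34.5, 33.9 and 18.9 CPM. Both had every library labelled IE-HuR-/- below every control, with log2 fold changes of -0.90 and -1.46 (standard errors 0.20 and 0.27, adjusted p = 0.04 and 0.0121). Neither kept its call without the goblet-rich barcodes (adjusted p = 0.1 and 0.0522), and Adgrg4 lost it when control replicate 3 or any library labelled IE-HuR-/- was left out, with the highest adjusted p, 0.295, without IE-HuR-/- replicate 2. Setd7 lost it without IE-HuR-/- replicate 2 or 3, at adjusted p of 0.0573 and 0.0671, and DESeq2 did not call Adgrg4 (adjusted p = 0.0875).

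**Figure D4:**
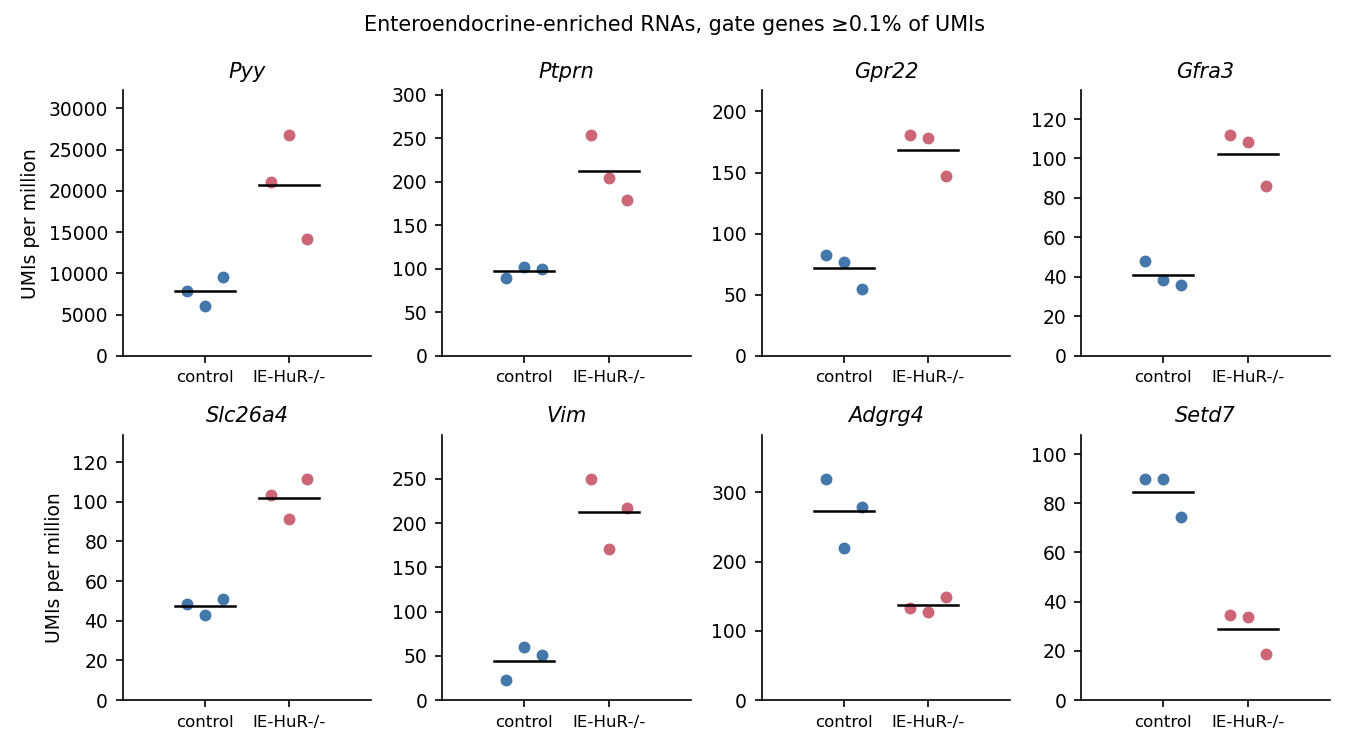
Levels (y axis, CPM of the summed high-gate barcodes) of Pyy, Ptprn, Gpr22, Gfra3, Slc26a4, Vim, Adgrg4 and Setd7 in each library, by label, with a point per library and black lines at label means. For all 8 RNAs the 3 libraries of a label lie on the same side of the other 3.

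In the high-gate barcodes, each library labelled IE-HuR-/- held exactly 1 barcode with at least 5% goblet RNA, and the controls held none. These barcodes had 16.7%, 8.51% and 9.82% of their UMIs on goblet genes, and their 112, 110 and 169 gate-gene UMIs with Sct or Nts in the lead stood beside that goblet RNA in the same barcodes. The goblet list summed to 2877, 5723 and 2226 CPM in the high-gate barcodes of the controls and to 25952, 12279 and 13865 CPM in the others (9 of 9 genes with a UMI, Zg16 the highest, exact permutation p = 0.1). Among all 194 members the labels did not part in this way. The controls held 2, 0 and 2 such barcodes, up to 60.9% goblet RNA in control replicate 3, against 1, 2 and 2, and the list summed to 12784, 4495 and 25995 CPM against 8366, 9236 and 11953 CPM (exact permutation p = 0.7). Saa1, which encodes the acute-phase protein serum amyloid A, came almost wholly from them. Of its 144, 175 and 200 UMIs in the libraries labelled IE-HuR-/-, 140, 168 and 197 came from that barcode, and its log2 fold change of 9.36 in the high-gate set (adjusted p = 2.78e-08) rests on 1 barcode per library. Saa1 did not pass the filter on low counts without them.

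Leaving out these 3 barcodes took the calls in the high-gate set from 54 to 17, 13 higher and 4 lower. Besides Ptprn, Gfra3, Slc26a4, Vim and Wfdc2, those higher were Duoxa2 and Duox2, which form the dual oxidase that releases hydrogen peroxide, the skeletal muscle actin gene Acta1, the zinc-binding metallothionein gene Mt1, the MHC class II gene H2-Ab1, and Stk38, Actg1 and Prss30. The 4 lower were the drug-metabolizing and lipid genes Cyp3a11, Ces2a and Cd36, and Mgst1. Duoxa2 was at 8.62, 11.4 and 29.4 CPM in the high-gate barcodes of the controls and, without the goblet-rich barcodes, at 216, 342 and 321 CPM in the others (log2 fold change 4.16, standard error 0.34, adjusted p = 2.57e-05).

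Most RNAs called by label in the members were also called in the same direction in other epithelium of the same libraries. This held for 503 of the 552 called in all members. Of the high-gate calls, 49 were tested there, 41 were called in the same direction, 3 in the opposite one and 5 not called. In other epithelial barcodes 52.1% of 13487 RNAs were called, and Mt1 stood there at 1966 to 2183 CPM in the libraries labelled IE-HuR-/-, Duox2 at 358 to 368 CPM and Acta1 at 1244 to 1266 CPM. Mt1 in the high-gate barcodes was at 114, 79.9 and 120.3 CPM in the controls and at 552, 654 and 841 CPM in the others, and in T/NK barcodes at 161 to 176 CPM in the latter. In the libraries labelled IE-HuR-/-, its level in high-gate barcodes was therefore above that of T/NK barcodes and below that of other epithelium. At least 1 Mt1 UMI was found in 90.0%, 90.5% and 94.1% of high-gate barcodes labelled IE-HuR-/- and in 34.5%, 34.2% and 52.0% of those of the controls. The log2 fold change of Mt1 was 2.80 (standard error 0.24, adjusted p = 3.38e-06). The part of free RNA in these values was not tested.

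Over all 194 members the largest named rises were Saa1 at 9.23, with 140 of 171, 168 of 357 and 197 of 201 UMIs in 1 goblet-rich barcode per library labelled IE-HuR-/-, Acta1 at 6.13, Duoxa2 at 4.43, Reg3b at 4.24, Mt1 at 3.88, Duox2 at 3.85, the transglutaminase gene Tgm2 at 3.80, Reg3g at 3.51, the class II gene H2-Aa at 3.40 and 3300005D01Rik at 3.06. The largest falls were Cyp2c29 at -4.19, Bche at -2.29, Cyp3a11 at -2.08, Aadac at -1.99, Cyp2b10 at -1.80, Cd36 at -1.73, Setd7 at -1.60, Rdh7 at -1.55, Cyp2j6 at -1.44 and Cyp2c66 at -1.43. Acta1, Tgm2, H2-Aa and 3300005D01Rik lost the call without 1 or 2 libraries (adjusted p up to 0.0572, 0.0578, 0.0793 and 0.0794). Mt1 rose from 135, 95.2 and 168 CPM in the controls to 1754, 2047 and 1439.5 CPM, and in the low-gate barcodes alone it was at 141 to 258 CPM against 2310 to 3107 CPM. Of the 552 RNAs called in all members, 39 were also called in the 54 of the high-gate barcodes, 7.07% of the former and 72.2% of the latter, 2 sets that share 140 barcodes.

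In the high-gate set the rises chosen by the same rule were Saa1, Duoxa2 at 4.65, Duox2 at 3.07, Mt1, H2-Ab1 at 2.47, the kallikrein gene Klk1 at 2.47, Wfdc2 at 2.39, Vim, Dusp1 at 2.19 and the carbonic anhydrase gene Car4 at 2.18. The falls included Cyp3a11 at -2.63, Cd36 at -2.23, Alcam at -2.08, the water channel gene Aqp1 at -2.03, the lactase gene Lct at -1.60, Ces2a, Setd7 and Adgrg4. Without IE-HuR-/- replicate 2, Klk1, Alcam, Aqp1, Lct, Cd36 and Cyp3a11 were not called (adjusted p = 0.108, 0.155, 0.328, 0.153, 0.058 and 0.153), and Cyp3a11 also lost its call without control replicate 3 (0.0801), Cd36 and Alcam without IE-HuR-/- replicate 3 (0.0513 and 0.0716), and Aqp1 and Lct without several other libraries. Saa1, Duoxa2, Duox2, Mt1, Car4 and Ces2a kept their calls without any single library. Cyp3a11, at 549, 1098 and 815 CPM in the controls, was at 56.0, 108 and 196 CPM in the others, and the groups did not overlap. Klk1, Dusp1, Car4, Alcam, Aqp1, Lct, Setd7 and Adgrg4 were no longer called without the goblet-rich barcodes, with log2 fold changes of 1.81, 1.92, 1.55, -1.92, -1.96, -1.44, -1.30 and -0.85.

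MHC class II genes, whose proteins present peptides to helper T cells, moved together in all members, where 6 of 6 tested rose (median log2 fold change 2.74), although Cd74 and H2-Aa were not called without IE-HuR-/- replicate 1 or 2 (adjusted p up to 0.0992 and 0.0793). In the high-gate barcodes 2 of 5 tested rose, H2-Ab1 and H2-DMb1, all 5 were positive with a median of 2.63, and all 5 had an unadjusted p under 0.05. Of all RNAs tested, 5.28% were called higher in all members and 0.62% in the high-gate barcodes. H2-Ab1 stood at 39.7, 127 and 81.9 CPM in the high-gate barcodes of the controls and at 349, 395 and 551 CPM in the others, against 83.0 to 118 CPM in T/NK barcodes of the latter and 918 to 945 CPM in their other epithelial barcodes. Genes of B and plasma cells (Igkc the highest, Cd79a at 0) summed to 5.66, 0 and 0 CPM in the members of the controls and to 9.54, 13.2 and 21.3 CPM in the others, and myeloid genes (Lyz2 the highest, C1qb at 0) to at most 1.07 and 8.76 CPM, and their part in the class II values was not tested. For H2-Ab1 the log2 fold change in the high-gate barcodes was 2.47 (standard error 0.34, adjusted p = 0.00877), 2.28 (adjusted p = 0.0461) without the goblet-rich barcodes, and the adjusted p was 0.058 without IE-HuR-/- replicate 2. Of 10 genes for mitochondrial and control proteins probed in the study, only the cytochrome c gene Cycs rose in all members (log2 fold change 0.85, adjusted p = 0.00282), and edgeR and DESeq2 called none in the high-gate barcodes, where 2 had an unadjusted p under 0.05.

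Among 16 tested RNAs of 18 known from earlier results of these data to differ most by label in other epithelial classes, 7 rose and 8 fell in all members, and 3 of 13 rose and 2 fell in the high-gate barcodes. The shares called over all RNAs tested were 7.47% and 0.816%. The list of 18 was chosen on these libraries and is no independent evidence of direction. Reg3b, an antimicrobial lectin gene, stood at 44.8, 484 and 839.7 CPM in the high-gate barcodes of the controls and at 3395, 2627 and 10643 CPM in the others, and without the goblet-rich barcodes at 1666, 396 and 1695 CPM, which overlapped the controls.

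Whether the label acted differently on these cells than on other epithelium was tested directly, with the label by class term of a fit that held the library as a term. In all members 0.216% of 7392 RNAs were called, 5 with a higher and 11 with a lower label effect than in other epithelium, and in the high-gate barcodes 0.408% of 6618, 20 higher and 7 lower, the gate gene Chga being 1 of those lower in both. Ghr, the growth hormone receptor gene, stood at 91.4, 64.2 and 60.2 CPM in the high-gate barcodes of the controls and at 64.6, 84.7 and 71.5 CPM in the others, while in other epithelial barcodes it was at 9.49, 8.69 and 9.36 CPM against 1.21, 1.13 and 0.754 CPM. The label groups overlapped in the former and were apart in the latter, and the label effects differed by 3.27 on the log2 scale (adjusted p = 1.07e-05).

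Muc4, a membrane mucin gene, was the counterpart in the other direction. It rose from 5.32, 4.72 and 5.03 CPM to 55.3, 53.7 and 55.1 CPM in other epithelial barcodes and stood at 77.6, 68.5 and 92.2 CPM against 94.8, 136 and 116 CPM in the high-gate barcodes, where it was not called (log2 fold change 0.66, adjusted p = 0.223). The difference of the label effects was -2.86 (adjusted p = 4.35e-06). The fucosyltransferase gene Fut2 behaved alike, with a log2 fold change of 2.55 in other epithelial barcodes and -0.20 in the high-gate barcodes (difference -2.67, adjusted p = 0.000786), as did Slc25a4, Dgkh and Cotl1 with differences of -1.44, -1.28 and -1.23.

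Vim, Bcam, Ifit1bl1 and Gpr22 had a higher label effect in the high-gate barcodes, by 3.89, 2.48, 2.38 and 2.24 (adjusted p = 2.13e-06, 0.0295, 0.000786 and 0.000786). Vim and Bcam had log2 fold changes of -1.55 and -1.63 in other epithelial barcodes, where Gpr22, at 0.368 to 0.905 CPM, fell by 0.86. Bcam was also near the floor there, at a median of 0.941 CPM over libraries, so part of its difference is a fall at that level. Ptprn also differed, by 1.81 (adjusted p = 0.0369), but Pyy did not pass this test (0.49, adjusted p = 0.738), nor did Gfra3 (2.07, adjusted p = 0.517). In other epithelial barcodes Ptprn was at a median of 0.222 CPM over libraries, with a log2 fold change of -0.57. In all members the Vim difference was 3.62, and 4.03 with an adjusted p of 0.0874 when the T/NK-marked or non-epithelial members were left out, which leaves 145. Without the goblet-rich barcodes 28 RNAs were called in the high-gate set, with Vim at 3.74, Ghr at 3.43, Muc4 at -2.89, Fut2 at -2.61, Bcam at 2.53, Gpr22 at 2.01 and Ptprn at 1.85 among them, while Cotl1 was not (adjusted p = 0.0841). Vim in other epithelial barcodes stood at 3.62, 12.8 and 8.98 CPM in the controls and at 1.81, 2.82 and 3.18 CPM in the others.

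**Figure D5:**
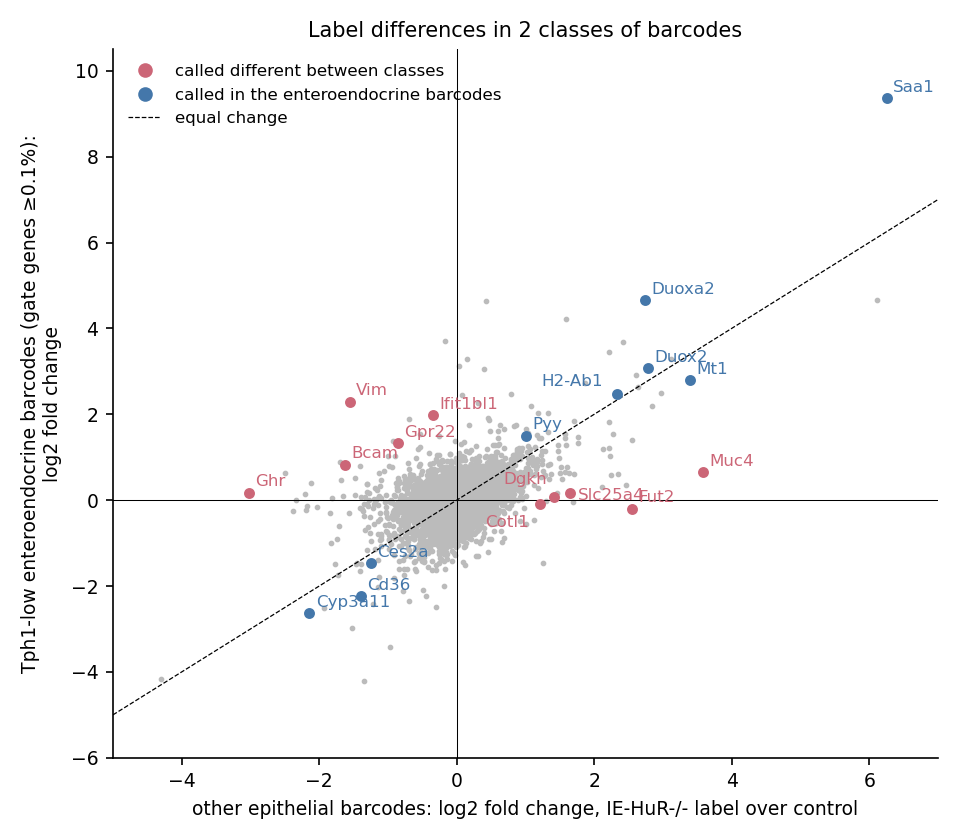
Log2 fold change by label in the high-gate barcodes (y axis) against that in other epithelial barcodes (x axis), each grey point an RNA, with named RNAs in red where the label by class term was called, other named called RNAs in blue, and a dashed line of equal change. Both axes come from the same 6 libraries, and Ghr and Vim lie above the diagonal and Muc4 and Fut2 below it.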

How the data were processed

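The deposited matrices hold counts of UMIs per RNA and barcode, which the authors made with Cell Ranger (cellranger 6.1.2 per the file headers) for 32285 features, and raw counts were used as deposited. The labels name mm10, Seurat and a 5′ kit, whereas the methods name a 3′ kit, another Cell Ranger version and a human reference, so strand and chemistry are uncertain. Mucosa was dissociated after EDTA treatment, villus-rich and crypt-rich fractions were combined, and the methods state a check of epithelial purity by flow cytometry before loading. Barcodes with T/NK markers were nonetheless found in every library. Barcodes needed 1000 UMIs and at most 30% mitochondrial UMIs. Epithelial barcodes and T/NK barcodes were defined by marker genes, and no doublet caller was run, so barcodes that hold more than 1 cell remain. Same-label libraries differed by more than sampling noise (chi-square per degree of freedom of 11.5 to 35.6 over 6 pairs), so none was counted as a repeat.

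UMIs were summed per library and class. Sums of the members held 733822 to 1365795 UMIs per library. RNAs were tested with edgeR 4.0.16 in R 4.3.3 (filterByExpr, TMM scaling, robust quasi-likelihood fit), and p-values were adjusted by the Benjamini-Hochberg method over all RNAs tested, with 0.05 as threshold. The label by class difference used the same fit with library as a term. CPM values are not TMM-scaled. Shares were compared by two-sided exact permutation tests, with 95% Wilson intervals that cover counting error only. DESeq2 1.42.0 and limma 3.58.1 were alternatives, together with other limits on the members, each library left out and a replicate block. Tables were handled in Python 3.11.15 with pandas 2.3.3, scipy 1.17.1 and numpy 2.4.6. On simulated counts with a log2 change of 2, 195 of 196 changed RNAs were recovered in the members, 192 of 197 in the high-gate barcodes and 194 of 198 for the difference, with 4.41%, 5.88% and 7.62% of calls false, above the threshold in the latter 2. The simulation gave all RNAs of a class the same spread and changed only RNAs above a floor of UMIs. Other epithelium was given less spread than was fitted there. Recovery of smaller changes, or of RNAs as uneven between barcodes as the hormones, was therefore not measured.

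RNAs were named by rule: the 20 largest folds of the members over other epithelium, judged by the lowest of 6 libraries, Elavl1, hormones with at least 10 UMIs, called members of the other lists, and, of the called RNAs, the top 10 in each direction by size of change with labels that did not overlap and at least 50 CPM under 1 label (5 each way for the difference). Enriched RNAs called in the high-gate barcodes, and what accompanied each leading hormone, were named after their values were seen. An RNA that the rule names is not reported here. The members, lists and limits were chosen with earlier results of these data known. Nothing in the labels says how many cultures or batches the libraries came from beyond 1 animal each.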

Additional observations from a re-analysis of the deposited data

Results flagged for a closer look

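The label effect differed between Tph1-low enteroendocrine and other epithelial barcodes, by a test of the difference itself, for 10 RNAs named by rule. Differences are log2 fold change in all 194 members minus that in other epithelium. They were higher in the members for Vim at 3.62 (edgeR adjusted p = 8.32e-05), Ghr at 2.57 (0.000499), Bcam at 2.01 (0.00221), Reg3b at 1.76 (0.000364) and Lamb3, a laminin chain gene, at 1.29 (0.0181). They were lower for Muc4 at -2.93 (9.64e-07), Slc25a4, a mitochondrial ADP/ATP carrier gene, at -1.77 (0.000704), the diacylglycerol kinase gene Dgkh at -1.54 (0.00601), Marcks at -1.24 (0.000704) and Phlda1 at -1.08 (0.00687).

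Bcam was near the floor in other epithelial barcodes, at a median of 0.941 CPM over libraries, and fell there. Reg3b was not called in the high-gate barcodes (adjusted p = 0.776), with at least 4 gate genes (0.907) or without goblet-rich members (0.712). Without T/NK-marked or non-epithelial members the Vim difference was 4.03, with an adjusted p of 0.0874. Dgkh, Lamb3 and Phlda1 lost the call without single libraries, with adjusted p up to 0.0716 (IE-HuR-/- replicate 1), 0.123 (control replicate 2) and 0.145 (IE-HuR-/- replicate 1).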

How the results depend on the processing

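The share of members kept its direction under every alternative run, between log2 ratios of -0.51 and -0.02 when 1 library was left out. The 552 RNAs called in all members became 94 with at least 4 gate genes, 54 in the high-gate barcodes, 340 with fewer than 2 Tph1 UMIs, 201 at no more than 15% mitochondrial UMIs, 262 without T/NK-marked or non-epithelial members (145 left, both exclusions made at once), 62 without members over 3% enterocyte RNA, 898 without a filter on low counts, 334 with DESeq2, 75 among RNAs 2-fold higher in the members (gate genes included), and 146 to 804 without 1 library. The 54 in the high-gate barcodes became 15 to 173 without 1 library and, in an alternative chosen after seeing the data, 17 without goblet-rich barcodes. The 16 differences of the label effect became 9 with at least 4 gate genes, 27 in the high-gate barcodes, 53 without members over 3% enterocyte RNA, 215 without a filter, 43 with DESeq2, 27 with limma and 13 to 36 without 1 library. The 1 hormone called became 0 with fewer than 2 Tph1 UMIs, at no more than 15% mitochondrial UMIs or without goblet-rich members, 2 without TMM scaling, and 0 to 2 without 1 library. A hormone's share could not be called, since 3 against 3 libraries allow no p below 0.1. The causes were not tested.

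Replicate numbers did not pair the libraries, with correlations of same-numbered deviations of -0.03, -0.16 and -0.10 over 7541 RNAs. With the replicate block the calls were 266 in all members, 170 in the high-gate barcodes and 0 for hormones.

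Directions that reversed all belonged to values without a call as reported. Of these, Gip was called in the reported direction in 2 alternatives and reversed in 1, and Gcg was called in 1 and reversed in 4. The share led by Sct (2.01 percentage points) became -3.61 without control replicate 1, -6.86 after thinning to 1000 UMIs, -1.50 at no more than 15% mitochondrial UMIs and -8.18 without members over 3% enterocyte RNA. The share led by Gip (-2.50) became 5.58 with at least 4 gate genes, 4.33 in the high-gate barcodes, 5.16 at no more than 15% mitochondrial UMIs, 1.66 without T/NK-marked or non-epithelial members and 6.57 in the high-gate barcodes without goblet-rich ones. On the log2 scale, with at least 4 gate genes Elavl1 became 0.30, Ghrl 0.17, Nucb2 0.0070 and Sct 0.24. In the high-gate barcodes Elavl1 became 0.30, Ghrl 0.42, Gip 0.044, Nucb2 0.20 and Sct 0.30. Without T/NK-marked or non-epithelial members Elavl1 became 0.011 and Ghrl 0.46, and without those over 3% enterocyte RNA 0.18 and 0.31. Gcg became -0.64 with fewer than 2 Tph1 UMIs, -0.073 and -0.04 without IE-HuR-/- replicates 1 and 2 (up to 0.68 without replicate 3) and -0.019 with the replicate block, under which Ghrl became 0.25. Without control replicate 1 Ghrl became 1.79 and Nucb2 0.24, without control replicate 2 Elavl1 became 0.0050, and without IE-HuR-/- replicate 3 Ghrl became 0.15. Nts became -0.079 without goblet-rich members, -0.09 and -0.12 without control replicate 3 and IE-HuR-/- replicate 3 and -0.072 without TMM scaling, and Sct became 0.083 without IE-HuR-/- replicate 1. At the other ends of the ranges without 1 library stood Elavl1 at -0.32, Ghrl at -0.80, Nts at 0.37, Nucb2 at -0.56, Sct at -0.43 and the share led by Sct at 5.46 percentage points. With 10 to 38 high-gate barcodes per library, few barcodes set the level of each hormone.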
